A study of Sus scrofa with 3 samples.

Results

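Matricellular proteins are secreted proteins of the extracellular matrix that signal to cells through integrins and other receptors and act on cell adhesion rather than as load-bearing fibers. Osteopontin (SPP1), SPARC, thrombospondins, tenascins, periostin and the CCN proteins belong to this class, and fibronectin is the adhesive glycoprotein to which many of them bind. In fat they are made by stromal cells, macrophages, vascular cells and adipocytes, and they are studied in tissue remodeling, fibrosis and inflammation. The set followed here holds 10 genes taken by name and not by a threshold on their values, namely SPP1, CD44, SPARC, SPARCL1, THBS1, THBS2, TNC, POSTN, FN1 and CTGF. Of these, 9 were found among the 22826 genes classed as mRNA in the deposited values of all libraries. CTGF is listed there under its other symbol, CCN2, and THBS2 was not analysed here.

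The values come from RNA-Seq of visceral adipose tissue (retroperitoneal fat) of male Chinese Wuzhishan miniature pigs, which were 6 to 7 months old when obtained. All pigs received a diet rich in fat and cholesterol (HFC diet) for 12 weeks, the intact reference group included. Intact male pigs (IM) had skin incisions only, castrated male pigs (CM) were gonadectomized, and the pigs with testosterone replacement (CMT) were castrated in the same way and injected intramuscularly every week with 10 mg/kg testosterone propionate in corn oil. Equal amounts of RNA from the pigs of each group were pooled (4 to 6 pigs per group by the sample labels, 4 by the study's methods), and each group is 1 library.

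With 1 library per group there is no replicate check of any difference below, and no test between groups was made. Levels are given in UQRPKM, that is, reads per kilobase of gene scaled by the upper quartile of reads per gene of a library, so levels can be compared between genes as far as the gene lengths used are right. A difference is the log2 ratio of UQRPKM, called when it reaches 1.5-fold with at least 1 UQRPKM in both libraries. The 95% intervals are exact Clopper-Pearson intervals on the reads behind a value. They cover counting error only, because reads of an amplified library are not independent molecules and because the spread between pigs and between libraries was not measured. Reads recovered from the values, as described at the end, came to 16611931 (IM), 15561124 (CM) and 15106608 (CMT) on genes.

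Adipocyte markers were abundant in every library, with ADIPOQ between 63873 and 74928 UQRPKM and PLIN1 between 12504 and 18587. Summed over 4 adipocyte genes, the level was 108487 UQRPKM (IM), 103302 (CM) and 89225 (CMT), with none at 0. LEP, 1 of the 4, had 167 UQRPKM (IM), 502 (CM) and 156 (CMT). It was the only one called, at a log2 ratio of 1.59 for CM versus IM and -1.69 for CMT versus CM. The libraries also held unequal amounts of RNA typical of other tissues. Summed over 10 skeletal muscle genes, the level was 82.5 UQRPKM (IM), 68.3 (CM) and 6145 (CMT), with CKM at 0 in all libraries and MYH2 at 0 in CM. All 8 of those compared were higher in CMT versus CM, beside 9.53% of all mRNA genes. Over 10 hepatocyte genes the summed level was 2555, 9194 and 1737 UQRPKM, respectively. APOA1 made up most of that sum in IM and CMT, at 2539 and 1714 UQRPKM, and was not raised in CM, at 2339. ALB had 2.61 UQRPKM (IM), 2910 (CM) and 4.00 (CMT). Of 5 compared in CM versus IM, 4 were higher, beside 8.38% of all mRNA genes. Of the 10 genes, 5 were at 0 in IM and 3 in CMT, SERPINA1, FGG and APOH in both. In bulk RNA of this kind, fewer cells of a type and less RNA per cell cannot be told apart.

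**Figure D1:**
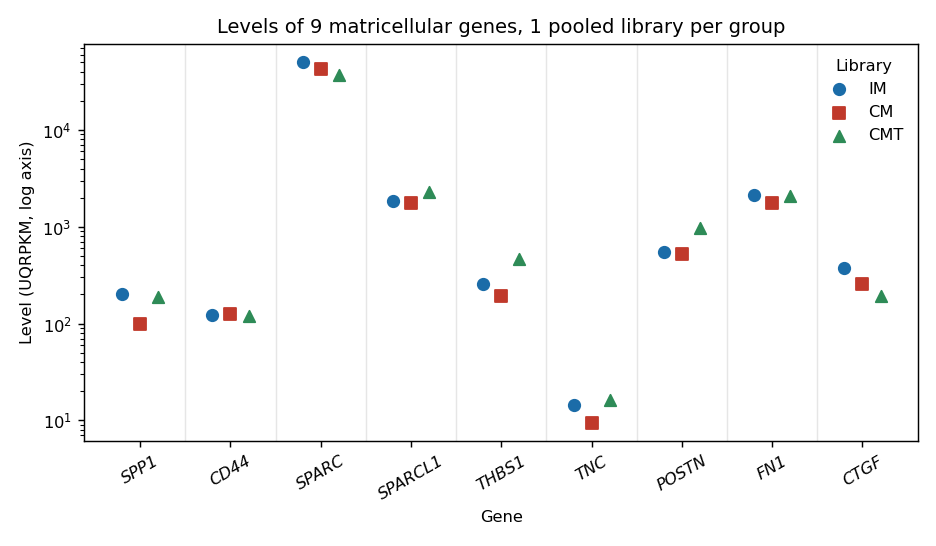
Level of the 9 measured genes (UQRPKM, log axis) in the IM, CM and CMT libraries, 1 point per library and no error bars because each group is 1 pooled library. SPARC lies above all others at 36709 to 50403 UQRPKM, TNC lies lowest at 9.44 to 16.1, and SPP1 in CM lies below its levels in IM and CMT.

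The 9 genes covered more than 3 orders of magnitude in level, with SPARC highest and TNC lowest in each library. The order changed between libraries for the pairs FN1 and SPARCL1, THBS1 and CTGF, and SPP1 and CD44. SPARC, a collagen-binding glycoprotein, stood at rank 6 of all mRNA genes in IM, rank 7 in CM and rank 13 in CMT. It alone made up 90.2% of the summed level of the 9 genes in IM, and 90.0% and 85.3% of it in CM and CMT. FN1 and the SPARC relative SPARCL1 followed and lay close together, with FN1 at 1.13 times SPARCL1 in IM, 1.02 times in CM and 0.925 times in CMT. POSTN, THBS1, CTGF, SPP1 and CD44 lay between 100 and 984 UQRPKM. TNC, an extracellular glycoprotein typical of developing and injured tissue, lay at percentile 30.1 of the mRNA genes above 0 in IM and at percentiles 24.8 and 31.6 in CM and CMT. The shortest length that gives whole reads for SPARC was 529 bases, which is shorter than a full SPARC transcript. Whether the authors used that length or a multiple of it is not known, so the rank of SPARC, its share of the summed level and its level relative to other genes are uncertain, while its ratios between libraries do not depend on the length.

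CM was the lowest library for 6 of the 9 genes, namely SPP1, SPARCL1, THBS1, TNC, POSTN and FN1. CMT was lowest for CD44, SPARC and CTGF, so IM was lowest for none of the 9. The highest level was in IM for SPP1, SPARC, FN1 and CTGF, in CMT for SPARCL1, THBS1, TNC and POSTN, and in CM for CD44 alone. Several of these orders rest on differences within counting error, as given for each gene below.

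Osteopontin, the ligand encoded by SPP1, binds integrins and CD44 and is made by macrophages among other cells. Its level was 204 UQRPKM (IM), 100.2 (CM) and 187 (CMT), from 472, 221 and 425 reads. SPP1 was thus low in the castrated library without testosterone and close to the intact level with it. The log2 ratio was -1.03 for CM versus IM (95% interval -1.26 to -0.79), a 2.04-fold lower level, and 0.90 for CMT versus CM (0.67 to 1.14). In CMT versus IM it was -0.12 with an interval from -0.31 to 0.070 that included 0. The ratio in CM versus IM lay at the 3.99 percentile of the mRNA genes compared and that in CMT versus CM at the 94.8 percentile. SPP1 is a gene the study itself picked from these libraries for this pattern, so the direction is not independent evidence.

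CD44, the hyaluronan receptor that also binds osteopontin, showed no difference beyond counting error. It had 124 UQRPKM (IM), 125 (CM) and 119 (CMT), from 701, 678 and 664 reads. All 3 log2 ratios lay between -0.070 and 0.021, and all 3 intervals included 0, the widest bounds being -0.23 and 0.18. SPP1 stood at 1.65 times the level of CD44 in IM, 0.799 times in CM and 1.57 times in CMT.

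Most of the other receptors of these ligands stayed within 1.5-fold in each comparison. Among 10 integrin subunits that bind RGD-containing ligands or osteopontin, ITGB6 was at 0 in all libraries and 9 could be compared. ITGB5 (1039 to 1190 UQRPKM) and ITGB1 (1046 to 1109 UQRPKM) had the highest levels, and neither reached 1.5-fold in any comparison. ITGAV, the alpha subunit that pairs with ITGB3 and ITGB5, had 155, 122 and 147 UQRPKM in IM, CM and CMT. The calls were ITGB8, higher in CM versus IM at a log2 ratio of 0.65 from 38 and 57 reads, and ITGA8, higher in CMT versus CM at 0.73 and versus IM at 0.90. Among receptors of thrombospondins and the syndecans, SDC4, a heparan sulfate proteoglycan that binds fibronectin with integrins, had 2041 UQRPKM (IM), 1314 (CM) and 2196 (CMT). Its log2 ratios were -0.64 for CM versus IM and 0.74 for CMT versus CM, with CM lowest as for SPP1. SDC3 was lower in CM versus IM at -0.77. CD36 and CD47, receptors of THBS1, stayed within 1.5-fold in every comparison. Over all 15 receptor genes compared, 1 was higher and 2 were lower in CM versus IM, beside 8.38% and 10.4% of all mRNA genes. In CMT versus CM, 2 were higher and 0 lower, beside 9.53% and 9.97%, and in CMT versus IM 1 was higher and 0 lower, beside 8.81% and 11.9%. Among mRNA genes with a mean of at least 100 reads, as SDC3 and SDC4 had, 4.33% were lower in CM versus IM.

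SPARC had 50403 UQRPKM (IM), 42901 (CM) and 36709 (CMT), from at least 39728, 32226 and 28352 reads. It was highest in IM and lowest in CMT, with steps of similar size, at log2 ratios of -0.23 for CM versus IM and -0.22 for CMT versus CM. In CMT versus IM the log2 ratio was -0.46 (-0.48 to -0.44), still under 1.5-fold. SPARCL1, a related secreted protein found in vessel walls and stroma, had 1859, 1748 and 2269 UQRPKM from 9334, 8364 and 11160 reads. Its log2 ratio was -0.089 for CM versus IM, 0.38 for CMT versus CM and 0.29 for CMT versus IM, opposite in sign to SPARC in both comparisons with CMT. The level of SPARC over that of SPARCL1, whose size depends on the length of SPARC but whose course over the libraries does not, was 27.1 (IM), 24.5 (CM) and 16.2 (CMT). None of the ratios of either gene between libraries reached 1.5-fold, and none of the 6 intervals of SPARC and SPARCL1 included 0.

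THBS1, a thrombospondin that activates latent TGF-beta and inhibits angiogenesis, was the member with the largest increase in CMT relative to each other library. It had 257 UQRPKM (IM), 195 (CM) and 469 (CMT), from 2220, 1603 and 3970 reads. The CMT library was thus above both others, while CM was lowest. The log2 ratio was 1.27 for CMT versus CM (1.18 to 1.35), a 2.41-fold higher level, and 0.87 for CMT versus IM (0.79 to 0.94). In CM versus IM it was -0.40 (-0.49 to -0.31), within 1.5-fold. Of its relatives, THBS3 had 188 to 222 UQRPKM and stayed within 1.5-fold in all comparisons. THBS4 was called higher in CMT versus CM and versus IM from only 17 reads in CMT against 9 and 7, with intervals that included 0. COMP rested on 15 reads or fewer in each library.

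POSTN encodes periostin, a fibroblast product that binds integrins and collagen. It had 546 UQRPKM (IM), 530 (CM) and 984 (CMT), from 2704, 2500 and 4770 reads. IM and CM did not differ beyond counting error, at a log2 ratio of -0.044 (-0.12 to 0.035), and CMT was above both. The log2 ratio was 0.89 for CMT versus CM (0.82 to 0.96) and 0.85 for CMT versus IM (0.78 to 0.92). TGFBI, the closest relative of periostin, had 471, 376 and 424 UQRPKM and remained within 1.5-fold throughout.

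TNC had 14.6 UQRPKM (IM), 9.44 (CM) and 16.1 (CMT), from 99, 61 and 107 reads. It followed the same order of libraries as THBS1, with the lowest level in CM. The log2 ratio was -0.63 for CM versus IM with a wide interval from -1.11 to -0.15, and 0.77 for CMT versus CM (0.30 to 1.25). With a pseudocount of 1 UQRPKM or a rescaling to the median ratio, the ratio in CM versus IM came to -0.58 and -0.57, under 1.5-fold. In CMT versus IM it was 0.14, and its interval included 0. TNXB, the tenascin with the highest level here, had 125, 75.3 and 97.1 UQRPKM and was lower in CM versus IM at -0.73. TNR, a tenascin of the nervous system, had the opposite direction at a low level, with 3.04, 6.07 and 3.29 UQRPKM from 32, 61 and 34 reads. It was called higher for CM versus IM, with a log2 interval of 0.36 to 1.67, and its log2 ratio was -0.88 for CMT versus CM (-1.53 to -0.26). TNN rested on 10 reads or fewer in each library.

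FN1 had 2109 UQRPKM (IM), 1777 (CM) and 2099 (CMT), from 26444, 21228 and 25786 reads. The level in CM was 1.19-fold below that in IM and 1.18-fold below that in CMT, while IM and CMT did not differ beyond counting error, at a log2 ratio of -0.0070 (-0.032 to 0.018). POSTN stood at 0.259 times FN1 in IM, 0.298 times in CM and 0.469 times in CMT.

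CTGF, a CCN protein induced by TGF-beta and by mechanical strain, was highest in IM and lowest in CMT. It had 377 UQRPKM (IM), 257 (CM) and 195 (CMT), from 836, 544 and 423 reads. The level was lower in CM than in IM and lower again in CMT, so the CMT library lay farthest from IM. The log2 ratio was -0.55 for CM versus IM (-0.71 to -0.39), -0.40 for CMT versus CM (-0.59 to -0.22) and -0.95 for CMT versus IM (-1.13 to -0.78), of which only the last reached 1.5-fold. CYR61, the CCN relative with the highest level, had 533, 401 and 242 UQRPKM in the same order. Its log2 ratio was -0.73 for CMT versus CM and -1.14 for CMT versus IM. NOV remained within 1.5-fold, and WISP1 and WISP3 rested on at most 10 reads in a library. The level of THBS1 over that of CTGF was 0.681 (IM), 0.756 (CM) and 2.41 (CMT).

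**Figure D2:**
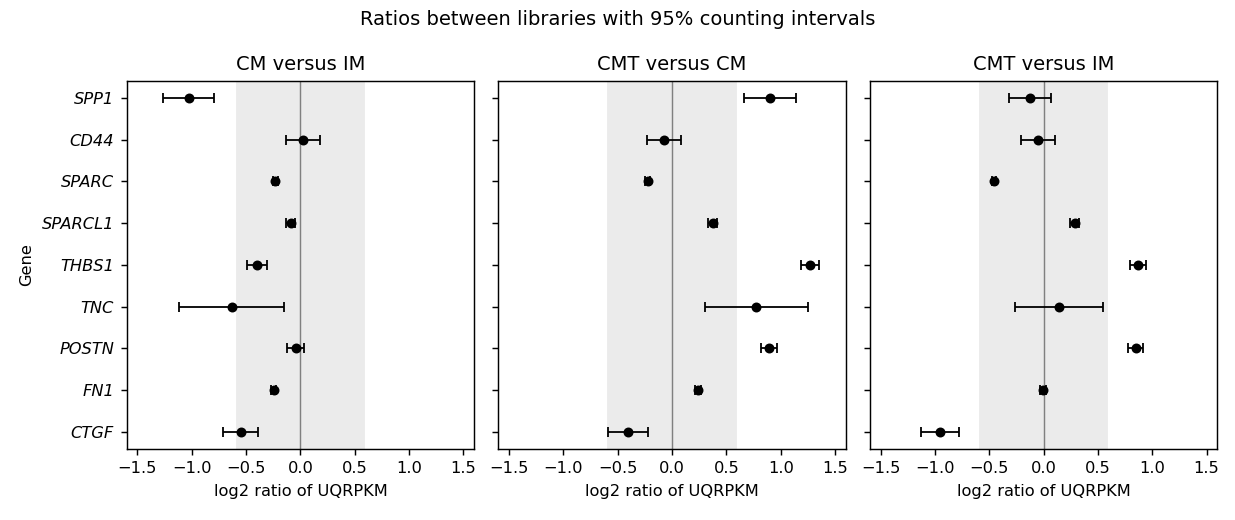
log2 ratio of UQRPKM of each gene in the 3 comparisons, with bars for the 95% counting interval and a gray band for ratios under 1.5-fold. SPP1 and TNC lie left of the band in CM versus IM, SPP1, THBS1, TNC and POSTN lie right of it in CMT versus CM, and THBS1 and POSTN lie right and CTGF left in the last panel.

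The counts of the set were then placed beside those of all mRNA genes. In CM versus IM, 0 of the 9 genes were higher and 2 (SPP1 and TNC) were lower by 1.5-fold or more, beside 8.38% and 10.4% of the 14123 mRNA genes compared. The log2 ratio was below 0 for 8 of the 9 genes, and the median was -0.25 against -0.062 over all mRNA genes. In CMT versus CM, 4 were higher (SPP1, THBS1, TNC and POSTN) and 0 lower, beside 9.53% and 9.97% of 14098 genes, and the medians were 0.38 and -0.022. Between CMT and IM, 2 were higher (THBS1 and POSTN) and 1 lower (CTGF), beside 8.81% and 11.9% of 14151 genes, and the medians were -0.0070 and -0.078. The first and second comparison share the CM library, so a low value in CM enters both. SPP1 is counted in both, and the study picked it from these libraries, so its calls are not independent evidence.

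Many of the calls over all genes rest on few reads, whereas 8 of the 9 genes had a mean of at least 100 reads over the libraries, all but TNC. Among mRNA genes with that many reads, 4.33% were lower and 2.67% higher in CM versus IM, beside 1 and 0 of the 8 genes. In CMT versus CM, 3.27% were higher and 4.35% lower, beside 3 and 0 of the 8 genes. SPP1 is the 1 lower gene in CM versus IM and is among the 3 higher genes in CMT versus CM. In CMT versus IM, 2.96% were higher and 6.24% lower, beside 2 and 1 of the 8 genes.

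**Figure D3:**
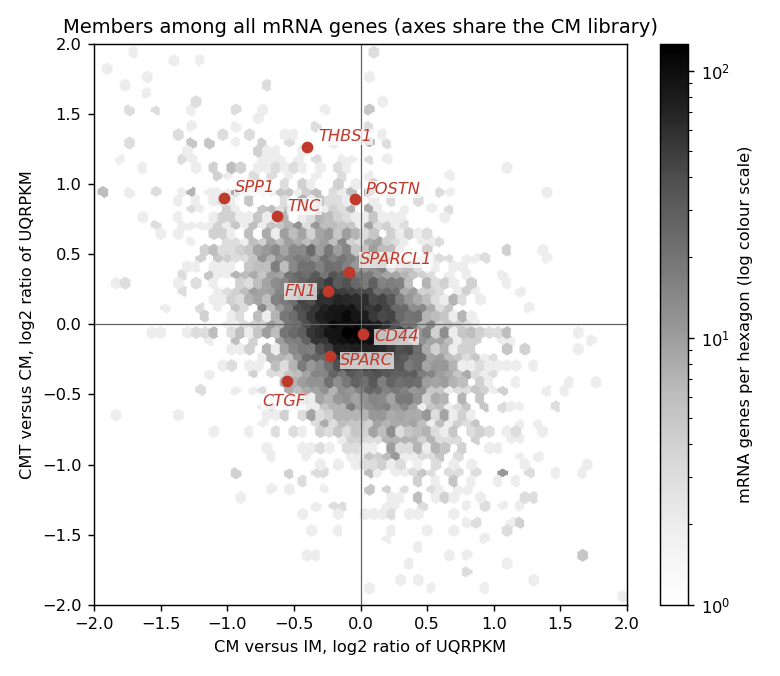
log2 ratio of UQRPKM in CMT versus CM (vertical) against CM versus IM (horizontal) for 13520 mRNA genes in gray hexagons and the 9 genes in red, with 338 genes outside the axes. Both axes contain the CM library and are not independent. SPP1 and TNC lie at the upper left, THBS1 and POSTN above the center, and CTGF and SPARC at the lower left.

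Over the set, 3 patterns could be told apart. SPP1 and TNC were low in CM, while IM and CMT did not differ beyond counting error, and FN1 was likewise lowest in CM with smaller ratios. THBS1 and POSTN were high in CMT relative to both other libraries. CTGF and SPARC descended from IM over CM to CMT. SPARCL1 was highest in CMT at under 1.5-fold, and CD44 followed none of the patterns. The 5 mRNA genes nearest to SPP1 in the pair of log2 ratios (CM versus IM and CMT versus CM), among genes of at least 50 UQRPKM in a library, were LOC100625485, DAP3, SRM, LCK and VWCE, at distances of 0.035 to 0.12 on the log2 scale. SRM, spermidine synthase, had 514 UQRPKM (IM), 267 (CM) and 514 (CMT). LCK, a kinase of T cells, had 67.1, 30.9 and 56.1 UQRPKM, and DAP3, a protein of the mitochondrial ribosome, had 69.6, 34.1 and 61.7 UQRPKM. Likeness over 3 libraries is a weak description, and TNC could not enter this list because its level was under 50 UQRPKM.

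The relatives of the set were called in either direction, in part from few reads. Of 29 listed relatives (bone sialoproteins, other SPARC proteins, thrombospondins, tenascins, TGFBI, CCN proteins and fibulins), 26 were found, and 22 could be compared in CM versus IM, with 3 higher and 5 lower, beside 8.38% and 10.4% of all mRNA genes. Only 4 of these 8 calls had an interval that excluded 0, and COMP and WISP1, both among the higher genes, were not among them. The median log2 ratio was -0.26. In CMT versus CM, 1 was higher and 3 were lower of 22, beside 9.53% and 9.97%, with a median of 0.13 and 2 intervals of called genes that excluded 0. In CMT versus IM, 2 were higher and 4 lower of 21, beside 8.81% and 11.9%, with a median of -0.15 and 3 such intervals. Among the bone and dentin phosphoproteins related to SPP1, IBSP and MEPE were at 0 in all libraries, and DMP1 and DSPP had under 6 UQRPKM. SMOC1, a SPARC relative of basement membranes, was lower in CM versus IM with 230 UQRPKM (IM), 150 (CM) and 165 (CMT). FBLN2, a fibulin that binds fibronectin, had 63.0, 34.8 and 31.9 UQRPKM and was lower in both castrated groups than in IM. The fibulins with the highest levels, EFEMP1 at 1145 to 1453 UQRPKM and FBLN5 at 805 to 901, stayed within 1.5-fold.

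Matrix genes that share the TGF-beta pathway with THBS1 and CTGF were also followed. Of 6 TGF-beta ligands, receptors and latent binding proteins compared, 1 was called, LTBP2, a microfibril protein of the latent TGF-beta binding protein family. LTBP2 had 35.9 UQRPKM (IM), 24.8 (CM) and 60.7 (CMT), at a log2 ratio of 1.29 for CMT versus CM and 0.76 for CMT versus IM. Of all mRNA genes, 9.53% and 8.81% were higher in these comparisons. TGFB1 itself had 402, 291 and 303 UQRPKM and stayed within 1.5-fold. Among 6 small leucine-rich proteoglycans, FMOD alone was called, higher in CMT versus CM and versus IM, beside the same shares. FMOD had 280, 320 and 719 UQRPKM in IM, CM and CMT. DCN, the most abundant of the 6, had 11012, 11158 and 14747 UQRPKM and stayed within 1.5-fold.

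Marker lists of the cells that make these proteins gave the following values. Of 9 macrophage markers compared in CM versus IM, 3 were higher (EMR1, LOC100520753, which is CD68, and MARCO) and 0 lower. Of all mRNA genes, 8.38% were higher and 10.4% lower in that comparison. CD163 was at 0 in all libraries. The summed level of the macrophage markers was 4376 UQRPKM (IM), 3909 (CM) and 3624 (CMT), of which C1QA alone held 2833, 2100 and 1993. At under 1.5-fold, AIF1 (0.47), ITGAM (0.35) and C1QB (0.19) were higher in CM than in IM. C1QA (-0.43), CSF1R (-0.22) and MRC1 (-0.056, interval including 0) were lower, so the directions were mixed. The median log2 ratio of the list was 0.35. In CMT versus CM, 0 were higher and 4 lower (EMR1, CD68, ITGAM and MARCO), beside 9.53% and 9.97% of all mRNA genes. Of 6 fibroblast markers, COL1A1 was lower in CM versus IM at a log2 ratio of -0.99, and DPT was higher in CMT versus CM at 1.01, with 4519, 3728 and 7505 UQRPKM in IM, CM and CMT. Of all mRNA genes, 10.4% were lower in CM versus IM and 9.53% higher in CMT versus CM. In CMT versus IM, DPT (0.73) and PDGFRA (0.59) were higher and COL1A1 (-0.79) was lower, beside 8.81% and 11.9% of all mRNA genes. COL3A1 and COL1A2, the highest of the list, stayed within 1.5-fold. The summed level of the fibroblast markers was 64039, 60738 and 59250 UQRPKM, with none at 0.

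Mesothelial markers were highest in CMT when summed. Of 7 found, CALB2 was at 0 in CM and CMT, and LRRN4 was at 0 in all libraries. The summed level was 122 UQRPKM (IM), 205 (CM) and 495 (CMT). Of 5 compared in CMT versus CM, 4 were higher and KRT18 was lower, beside 9.53% and 9.97% of all mRNA genes. MSLN had 6.47, 15.4 and 59.5 UQRPKM and KRT8 had 51.2, 102 and 307. For smooth muscle, MYH11 was at 0 in all libraries, and the summed level was 6222, 4598 and 4776 UQRPKM, of which DES, also a skeletal muscle gene, held 459 in CMT. Of 5 smooth muscle markers compared in CM versus IM, 0 were higher and 3 lower (CNN1, DES and SMTN), beside 8.38% and 10.4% of all mRNA genes. ACTA2 descended from IM to CMT with 2643, 1800 and 1654 UQRPKM, whereas CNN1 did not, with 153, 101 and 142 UQRPKM. The endothelial sum was 8648, 7702 and 8315 UQRPKM, with none at 0 and none of the 5 called in any comparison, beside the shares given above. The high THBS1 and POSTN in CMT went together with high skeletal muscle markers and a high mesothelial sum. Fibroblast markers were mixed in CMT versus IM. DPT and PDGFRA were higher and COL1A1 was lower, and COL1A2 (-0.35), PDGFRB (-0.22) and COL3A1 (-0.13) were lower at under 1.5-fold. The low SPP1 and TNC in CM went together with high hepatocyte genes other than APOA1. Macrophage markers were mixed in CM versus IM. EMR1, CD68 and MARCO were higher, and AIF1, ITGAM and C1QB were higher at under 1.5-fold. C1QA (-0.43), CSF1R (-0.22) and MRC1 (-0.056, interval including 0) were lower at under 1.5-fold, and the macrophage sum was 4376 UQRPKM in IM and 3909 in CM. The part of these cells in the ratios was not tested.

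**Figure D4:**
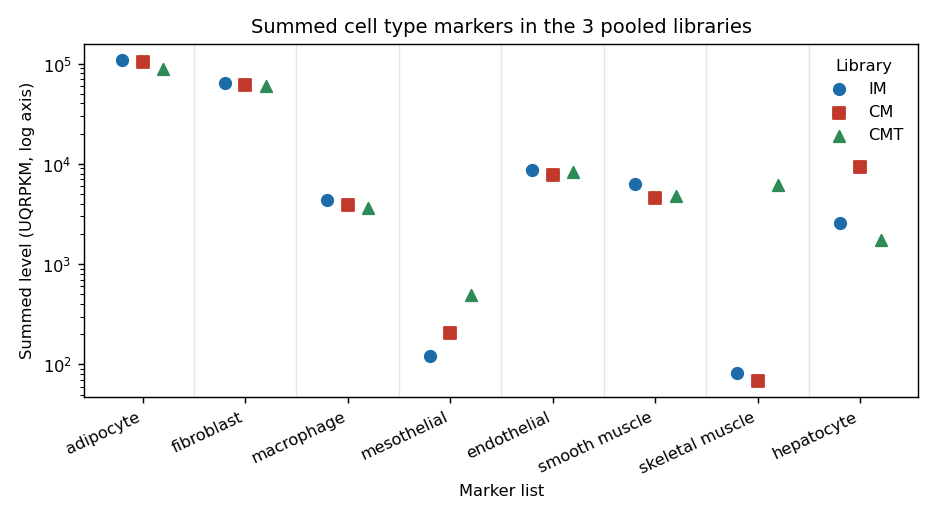
Summed level (UQRPKM, log axis) of 8 lists of cell type markers in the IM, CM and CMT libraries, 1 point per library. Skeletal muscle stands at 6145 in CMT against 82.5 in IM, hepatocyte at 9194 in CM and mesothelial at 495 in CMT, while the fibroblast, macrophage and endothelial sums lie close together.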

How the data were processed

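RNA of IM, CM and CMT pigs was pooled by group and sequenced as 1 Ion Proton library per group. The authors removed adaptors and poor reads, aligned the remainder to Sscrofa 10.2 by MapSplice and deposited RPKM values scaled by the upper quartile (UQRPKM). The counting tool, annotation and handling of shared reads are not given in the sources used here. A gene table of another build gave the synonym that links CTGF to CCN2, and no positions were used.

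Reads were recovered as the whole numbers that, with upper quartiles of 149, 142 and 146 and the shortest length up to 120000 bases, give the values of a gene in all libraries, to a relative tolerance of 1e-08. This held for all 20838 genes above 0. A common factor can be missed, which makes reads too low and intervals too wide. The upper quartiles were themselves inferred, as the smallest whole numbers that fit the ratios between low values of the libraries. The steps were tested on simulated data that used the same upper quartiles, so that test cannot check them.

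A call used the thresholds of the study (1.5-fold, 1 UQRPKM in both libraries) without its test. Named were the members and the 5 genes nearest to SPP1 by Euclidean distance. From each fixed list, called genes and the 2 highest could be named, and not all of them are. List genes outside this rule (ITGAV, ITGB3, CD47, CSF1R, AIF1, MRC1, PDGFRB, WISP3, APOH, FGG, SERPINA1, CKM, MYH2 and those given as listed at 0) were named after their values were seen. Members and lists were chosen with earlier results of these data known. In the lists, 9 of 122 genes had no row under their name or a synonym. The background at a mean of 100 reads and the leaving out of CTGF were chosen after seeing the data. Other alternatives were a fold of 2, no minimum level, an interval excluding 0, a pseudocount of 1, and scaling to total UQRPKM or to the median ratio. Python 3.11.15, pandas 2.3.3, NumPy 2.4.6, SciPy 1.17.1 and matplotlib 3.10.9 were used.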

Additional observations from a re-analysis of the deposited data

How the results depend on the processing

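At a fold of 2, 1 member was called in CM versus IM (SPP1), 1 (THBS1) for CMT versus CM and 0 for CMT versus IM. Scaling to the median ratio left 1 member called in CM versus IM and put the median log2 ratio of the members at -0.19 there and at 0.071 in CMT versus IM. Scaling to total UQRPKM put the latter at 0.037. Without CTGF the median was 0.57 for CMT versus CM and 0.067 for CMT versus IM. Dropping the minimum level or asking for an interval that excludes 0 left the 3 counts of called members as they were. Of the 27 log2 ratios of single members, each under 3 other settings, 2 of 81 values crossed 1.5-fold, both for TNC in CM versus IM, and 4 changed sign, all of them ratios near 0 of POSTN, CD44 and FN1. The largest move was 0.078. No called ratio changed sign. No replicate could be left out, and no paired analysis was possible because each group is 1 library. The number of reads limits TNC most, whose intervals span about 1 log2 unit.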
